A study of Mus musculus with 8 samples.

Results

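Semaphorins, plexins and ephrins are guidance genes that endothelial cells use to signal to their neighbours. The 10 genes described here are 5 semaphorins (Sema3g, Sema3d, Sema3c, Sema6a and Sema7a), the plexin receptors Plxnd1 and Plxna2, the ephrins Efnb2 and Efna1, and the Eph receptor Ephb4. They were found by symbol in the gene list of the second experimental run and matched to the first by gene identifier, and they are 10 of the 30406 identifiers that both runs share. All 10 were followed in every library. Their own values did not choose them, although results of these data were known when the list was drawn up.

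The series is a single-cell RNA sequencing study, by the 10x Genomics 3' method, of endothelial cells, and its title asks how an obesogenic diet changes arterial endothelium. Male ROSA26-eYFP+/+ Cdh5-CreERT2+ mice ate tamoxifen food from 6 weeks of age for 2 weeks, which switches on the YFP reporter through the Cdh5 promoter, active in endothelial cells. At 8 weeks of age the food became either normal chow with 5.8% fat or a high fat diet with 60% fat, and it stayed so for another 12 to 13 weeks. Tissue of 6 mice was combined in each library, the dissociation buffers contained actinomycin D, and cells were sorted by flow cytometry. The sources used here do not give the gate.

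Mesentery and epididymal adipose tissue were each taken on both diets, which makes 4 groups. All carried the same genotype and received tamoxifen. Each group has 2 libraries, from runs A and B of the whole experiment, so n is 2 pools of 6 mice a group. P-values for diet and tissue therefore measure the spread between pools, not between single mice. Where run is fitted as a block, the part that the libraries of a run share is taken out of that spread. P-values between cell classes measure how far the class differences vary from library to library.

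Class 3 semaphorins such as Sema3g, Sema3d and Sema3c are secreted ligands that act through plexins, mostly with neuropilins as co-receptors. Sema6a is held in the membrane and is a ligand of A-type plexins, among them Plxna2, whereas Sema7a is anchored by a lipid and binds Plxnc1 and integrins. Plxnd1 is the plexin best known for vascular patterning. Ephrins and Eph receptors are both bound to the cell surface and signal on cell contact. Efnb2 in arteries and its receptor Ephb4 in veins are the classic pair of markers that separate the 2 sides of the circulation, while Efna1 binds EphA receptors.

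The promoters below are those of Sema3g and Sema3d, with the largest log2 class differences among the members, of Efnb2 and Ephb4 as a ligand and its receptor, and of Plxnd1, which edgeR called between diets with a block for run only. Each run is the 250 bases before the RefSeq start of the gene in build GRCm38.p6, 5' to 3' on the strand of the gene. Sema3g is at chr14:31217623-31217872 on the + strand, Efnb2 at chr8:8661243-8661492 on the - strand, Ephb4 at chr5:137349859-137350108 on the + strand, Sema3d at chr5:12382916-12383165 on the + strand and Plxnd1 at chr6:115995006-115995255 on the - strand. Capitals mark matches to the searched motifs.
Sema3g: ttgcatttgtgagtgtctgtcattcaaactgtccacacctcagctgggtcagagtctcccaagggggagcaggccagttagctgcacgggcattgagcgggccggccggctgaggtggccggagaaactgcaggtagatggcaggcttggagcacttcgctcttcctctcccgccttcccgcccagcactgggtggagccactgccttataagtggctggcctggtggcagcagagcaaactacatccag
Efnb2: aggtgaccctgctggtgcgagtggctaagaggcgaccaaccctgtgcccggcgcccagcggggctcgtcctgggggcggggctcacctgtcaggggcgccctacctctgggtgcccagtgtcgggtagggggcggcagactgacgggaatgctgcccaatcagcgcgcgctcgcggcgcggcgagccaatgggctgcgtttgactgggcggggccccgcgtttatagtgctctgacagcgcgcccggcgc
Ephb4: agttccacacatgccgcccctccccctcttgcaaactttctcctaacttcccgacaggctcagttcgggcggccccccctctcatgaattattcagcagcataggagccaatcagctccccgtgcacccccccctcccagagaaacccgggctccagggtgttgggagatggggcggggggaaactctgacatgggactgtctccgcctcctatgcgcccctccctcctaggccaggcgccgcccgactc
Sema3d: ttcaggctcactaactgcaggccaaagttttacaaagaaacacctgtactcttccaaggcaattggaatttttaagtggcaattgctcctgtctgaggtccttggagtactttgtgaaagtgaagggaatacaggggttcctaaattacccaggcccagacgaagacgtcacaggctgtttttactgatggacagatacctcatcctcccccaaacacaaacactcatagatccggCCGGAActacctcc
Plxnd1: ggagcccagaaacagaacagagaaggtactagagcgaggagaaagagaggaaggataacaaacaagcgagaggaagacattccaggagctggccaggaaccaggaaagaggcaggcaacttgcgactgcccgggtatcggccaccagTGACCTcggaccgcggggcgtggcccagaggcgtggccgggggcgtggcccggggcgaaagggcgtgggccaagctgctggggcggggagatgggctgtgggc

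RefSeq promoters were found for 9 of the 10 genes, and Sema6a is named only. 4 short motifs were searched on both strands in that window, namely TGGGAA (RBPJ, the transcription factor of Notch signalling), AGGTCA (a core site of nuclear receptors such as the venous factor NR2F), AACAAT (SOX) and CCGGAA (ETS). Among 32851 mouse promoters of the same length they occurred in 21.6%, 14.0%, 9.42% and 12.0%. The Sema3d window holds 1 CCGGAA and the Plxnd1 window 1 AGGTCA, read as TGACCT on the strand shown. No match to the 4 motifs was found in the Sema3g, Efnb2 and Ephb4 windows, nor in those of the other members. A match is a string of letters and not a measured binding site.

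In the same build, the genes themselves lie at chr14:31217860-31230352 (Sema3g, + strand), chr5:12383385-12588948 (Sema3d, +), chr5:17574281-17730268 (Sema3c, +) and chr18:47235598-47368870 (Sema6a, -). Sema7a is at chr9:57940112-57962865 (+), Plxnd1 at chr6:115954811-115995005 (-) and Plxna2 at chr1:194618218-194816869 (+). Efnb2 lies at chr8:8617434-8661242 (-), Efna1 at chr3:89271733-89281142 (-) and Ephb4 at chr5:137350109-137378669 (+). All are protein-coding genes. Ephb4 overlaps Zan on the opposite strand, and Zan had 5 counts in the 4 endothelial classes against 8036 for Ephb4.

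The files give UMI counts, where 1 UMI stands for 1 captured RNA molecule. Run A libraries had 3461360 to 6714473 UMIs in 1352 to 2780 barcodes and run B libraries 18829960 to 36779289 in 3189 to 6218. The runs also carry different software versions, so run, depth, mice and software cannot be told apart. After filters, 23117 cells were clustered without the 53 genes of the semaphorin, plexin, neuropilin, ephrin and Eph families, and clusters were named from markers that include none of them. This gave 3177 arterial-like, 7377 capillary-like, 3140 venous-like and 2531 lymphatic-like cells. Summed endothelial markers were at 5590 to 12440 CPM (counts scaled to a common library total) in every library and class, and lymphatic markers at 10780 to 18000 CPM in lymphatic-like cells. Markers of other cells were not absent from the sums. Capillary-like sums reached 3952 CPM of lymphatic markers (adipose tissue on chow A) and 3975 of adipocyte markers (adipose tissue on chow B). They also reached 5013 CPM of erythroid markers (adipose tissue on high fat diet B). Arterial-like sums held 8463 to 38590 CPM of arterial markers and 1496 to 57800 of capillary markers. Venous-like sums held 4291 to 12210 CPM of venous markers and 2866 to 40070 of capillary markers. These capillary totals peaked in adipose tissue on high fat diet, where the class's own markers reached at most 14950 and 8482 CPM. Their part in the class differences was not tested. Library pairs shared 0 to 10 barcodes. Levels below are CPM of the counts summed over the cells of a class in 1 library, scaled by edgeR's TMM factor. Summed over cells, fewer expressing cells and less RNA per cell cannot be told apart.

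Sema3g, a secreted semaphorin, fell in steps from artery to capillary to vein. Over the 8 libraries it was at 409.6, 739.1 and 895.8 CPM (lowest, median, highest) in arterial-like cells, 62.58, 122.8 and 152.7 in capillary-like cells and 2.3, 8.51 and 25.89 in venous-like cells. The ranges of these 3 classes did not overlap. In lymphatic-like cells it was at 0 to 6.849 CPM, which overlaps the venous range. Arterial-like cells exceeded capillary-like cells by 2.73 ± 0.23 (SE) on the log2 scale (6.64-fold, edgeR adjusted p = 6.19e-10) and venous-like cells by 5.88 ± 0.27 (58.9-fold, adjusted p = 1.87e-15). The latter was 7.06 in run A and 5.52 in run B.

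Per cell, 79.95% of arterial-like cells held a Sema3g UMI, against 26.9% of capillary-like, 3.60% of venous-like and 0.514% of lymphatic-like cells. T cell-like cells, which should lack the gene, held one in 0.479%. The median depths were 4025, 3139, 4106, 2209 and 3223 UMIs in the same order. At 1000 UMIs a cell the shares were 47.2%, 10.4%, 1.17%, 0.0900% and 0%. The lymphatic-like share is thus near that of the T cell-like background, while the arterial-like and capillary-like shares stand far above it.

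Sema3d, also secreted, was high in lymphatic-like cells alone among the 4 classes. Lymphatic-like cells had 155.2, 220.1 and 443.3 CPM (lowest, median, highest), from 2139 counts. The 3 blood classes together gave few counts, 4 in arterial-like, 17 in capillary-like and 27 in venous-like cells, and no blood value reached above 28.88 CPM. That value was in the capillary-like sum with the most lymphatic markers (adipose tissue on chow A), whose part in it was not tested. The lymphatic level exceeded the mean of the 3 blood classes by 8.75 ± 0.33 on the log2 scale (adjusted p = 1.25e-17), and the ranges did not overlap. A log2 difference this large rests on near-empty blood counts, and it was 5.89 in run A and 9.50 in run B. Among other cells, fibroblast-like cells had a pooled 78.4 CPM.

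Sema3c, the third secreted member, was barely counted in the endothelial classes. They held 12, 38, 56 and 4 counts in arterial-like, capillary-like, venous-like and lymphatic-like cells, and the gene did not pass the filter on low counts for the class comparison. The highest single value, 55.57 CPM in capillary-like cells of mesentery on high fat diet A, stands for 6 counts in 42 cells, and 28 of the 56 venous-like counts came from 1 cell. Fibroblast-like cells had a pooled 146.7 CPM from 378 counts, and 21.75% of them held a UMI. Mesothelial-like cells had 137.5 CPM.

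Sema6a, the membrane-bound ligand, was highest in lymphatic-like cells and lowest in arterial-like cells. The lowest, median and highest values were 208.9, 330.1 and 413 CPM in lymphatic-like, 96.61, 215.1 and 306.1 in venous-like, 44.59, 219.2 and 328.6 in capillary-like and 53.55, 102.2 and 246.7 in arterial-like cells. All ranges overlap, yet the lymphatic-like value was above the venous-like one within each of the 8 libraries. Lymphatic-like cells exceeded the blood mean by 1.03 ± 0.13 (adjusted p = 1.78e-07). Arterial-like cells were lower than capillary-like cells (-0.65 ± 0.18, adjusted p = 0.00659, not called in run A alone) and venous-like cells (-0.69 ± 0.17, adjusted p = 0.00253), whereas capillary-like and venous-like cells did not differ beyond their spread (-0.04 ± 0.17, adjusted p = 0.916).

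Sema7a, the lipid-anchored ligand, was a gene of arteries and capillaries. It was at 41.05, 107.9 and 172.1 CPM (lowest, median, highest) in arterial-like cells and 56.25, 71.73 and 142.7 in capillary-like cells. Venous-like cells had 6.865, 10.85 and 22.41 CPM and lymphatic-like cells 0.7248, 6.066 and 14.12. Neither the venous nor the lymphatic range touches that of arterial-like or capillary-like cells. The arterial excess over venous-like cells was 3.26 ± 0.30 on the log2 scale (9.58-fold, adjusted p = 1.56e-09) and the capillary excess 2.44 ± 0.32 (adjusted p = 6.56e-07). The order of artery and capillary was not settled, since the difference of 0.82 ± 0.26 (adjusted p = 0.0222) was -0.65 in run A and 1.29 in run B, and DESeq2 gave an adjusted p of 0.454. It was also lost without any 1 of the 4 libraries of run B.

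The plexins showed shallower patterns. Plxnd1 was highest in venous-like cells, at 181.5, 232.3 and 398 CPM (lowest, median, highest). It was at 123.8, 151.6 and 264.8 CPM in arterial-like, 77.02, 149.5 and 205.1 in capillary-like and 33.4, 64.71 and 120 in lymphatic-like cells. Venous-like cells exceeded arterial-like cells in 7 of 8 libraries, and lymphatic-like cells were below capillary-like cells in all 8. Plxnd1 was lower in capillary-like than in venous-like cells (-0.86 ± 0.21, adjusted p = 0.00223; call lost in run A alone and with fewer clusters a class) and lower in lymphatic-like cells than in the blood classes (-1.45 ± 0.19, adjusted p = 2.62e-07). Arterial-like and capillary-like cells did not differ beyond their spread (0.23 ± 0.22, adjusted p = 0.539).

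The arterial deficit of Plxnd1 against venous-like cells (-0.63 ± 0.20, adjusted p = 0.0198) was lost under several cell settings, as it held in 5 of 10 alternatives with an adjusted p of up to 0.209. It was also lost without adipose tissue on chow A, adipose tissue on chow B or adipose tissue on high fat diet A. Outside the endothelium, macrophage-like cells had a pooled 142.3 CPM of Plxnd1 from 1537 counts.

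Plxna2, a receptor of Sema6a, was nearly level between arterial-like cells (89.85, 134.3 and 189.6 CPM) and capillary-like cells (52.95, 141.2 and 216 CPM), with a difference of -0.02 ± 0.13 (adjusted p = 0.951). It was at 69.01, 79.82 and 132.4 CPM in venous-like and 57.07, 75.24 and 99.93 in lymphatic-like cells. Arterial-like cells exceeded venous-like cells in all 8 libraries (0.50 ± 0.13, adjusted p = 0.00306), as did capillary-like cells on average (0.52 ± 0.13, adjusted p = 0.00223). The first of these calls was lost in run B alone and with fewer clusters a class, and the second in run A alone. Lymphatic-like cells were lower than the blood mean by 0.60 on the log2 scale (-0.60 ± 0.11, adjusted p = 3.61e-05).

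Efnb2, the arterial ephrin, was at 118.8, 286.5 and 478.3 CPM (lowest, median, highest) in arterial-like cells. It was at 86.65, 132.8 and 163.8 CPM in capillary-like, 39.11, 49.92 and 113.1 in venous-like and 61.25, 144.7 and 247.8 in lymphatic-like cells. Arterial-like values were above the venous range in every library, and within each library the arterial-like level was also above the lymphatic-like one. The arterial excess was 2.30 ± 0.21 over venous-like cells (4.93-fold, adjusted p = 1.39e-09) and 1.26 ± 0.21 over capillary-like cells (2.40-fold, adjusted p = 3.92e-05), the latter not called in run A alone (0.58). Capillary-like cells in turn exceeded venous-like cells by 1.04 ± 0.22 (adjusted p = 0.000538).

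Lymphatic-like cells did not differ from the blood mean in Efnb2 beyond their spread (0.24 ± 0.16, adjusted p = 0.238), and the sign of that difference turned between the runs (-0.37 in A, 0.59 in B). The mean Efnb2 level of run B was 2.40 times that of run A in arterial-like cells and 2.99 times in lymphatic-like cells, and B was higher in 4 of 4 groups in both classes.

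Efna1, the second ephrin, fell more gently along the same axis. It was at 91.18, 153.4 and 187.3 CPM in arterial-like, 78.77, 113.5 and 142 in capillary-like, 36.8, 66.24 and 81.37 in venous-like and 48.12, 73.09 and 141.2 in lymphatic-like cells. Arterial-like cells lay above the whole venous range and exceeded it by 1.22 ± 0.14 (adjusted p = 1.11e-07). Capillary-like cells exceeded venous-like cells by 0.78 ± 0.15 (adjusted p = 0.000149). The smaller differences, arterial over capillary (0.44 ± 0.14, adjusted p = 0.0268) and lymphatic below blood (-0.38 ± 0.12, adjusted p = 0.00937), were not firm. The first was lost in run A alone, with fewer clusters a class, and without adipose tissue on high fat diet A or B, adipose tissue on chow B or mesentery on high fat diet B, and the second in each run alone and with fewer clusters.

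Ephb4, the receptor of Efnb2, ran the opposite way. Venous-like cells had 46.75, 146.4 and 199.2 CPM, lymphatic-like cells 70.77, 100.3 and 157.2, capillary-like cells 55.57, 95.7 and 139.7 and arterial-like cells 24.78, 56.8 and 117. The ranges overlap throughout, but arterial-like cells were below capillary-like cells in each of the 8 libraries. The arterial deficit was -1.04 ± 0.15 against venous-like cells (adjusted p = 3.17e-06) and -0.51 ± 0.16 against capillary-like cells (adjusted p = 0.0196). Capillary-like cells were below venous-like cells (-0.53 ± 0.16, adjusted p = 0.0085), a difference that was -0.74 in run B and 0.08 in run A and was not called without adipose tissue on chow B. The deficit against capillary-like cells was not called without mesentery on chow A or B or adipose tissue on high fat diet A. Lymphatic-like cells were 0.29 ± 0.12 above the blood mean (adjusted p = 0.0478), a call kept in 3 of 10 alternatives and in 3 of 8 fits without 1 library, those without mesentery on chow A or either adipose library on high fat diet.

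Set against each other within a library, the pair gave an order of classes. The log2 ratio of Efnb2 counts to Ephb4 counts was 2.26 ± 0.58 (SD, n = 8) in arterial-like cells, 0.42 ± 0.25 in capillary-like, 0.34 ± 0.49 in lymphatic-like and -1.08 ± 0.69 in venous-like cells. The arterial-like ratios, 1.45 to 3.48, did not overlap with those of any other class, and the venous-like ratios, -1.92 to -0.09, did not overlap with the capillary-like ones, 0.07 to 0.74. Only the lymphatic-like ratios, -0.48 to 0.82, overlapped with their neighbours. The ratio depends on how well each RNA is captured, so only its difference between classes is read here.

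Most single cells held neither gene of the pair at an equal depth. At 1000 UMIs a cell, 809 of 3009 arterial-like cells held Efnb2 alone, 161 Ephb4 alone, 65 both and 1974 neither. In 2906 venous-like cells the counts were 140, 344, 26 and 2396, the reverse order of the single-positive cells. The 6253 capillary-like cells gave 626, 512, 84 and 5031, and the 2223 lymphatic-like cells 233, 169, 38 and 1783. The product of the separate shares of cells with each gene would give 65.64 arterial-like, 67.67 capillary-like, 21.14 venous-like and 25.23 lymphatic-like cells with both. The numbers with both were 65, 84, 26 and 38, close to these products or above them. Cells of all libraries were pooled here, and in lymphatic-like cells both genes were higher in run B (Efnb2 2.99 times, Ephb4 1.71 times). A number above the product is therefore not shown to be joint expression within cells. Of 391 T cell-like cells at this depth, 0.256% held Efnb2 and 0% Ephb4. A cell without a UMI is not shown to lack the RNA.

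Across the list, 9 genes could be tested between classes. Of these, 4 were higher and 2 lower in arterial-like than in capillary-like cells, where 13.3% and 9.97% of all 8939 genes tested were higher and lower. Against venous-like cells 5 were higher and 3 lower in arterial-like cells (13.9% and 15.7% of all genes), and 5 were higher and 2 lower in capillary-like cells (14.7% and 18.7%). Lymphatic-like cells had 3 higher and 5 lower than the blood mean (23.3% and 22.8%). The genes called thus made up a larger share of the 9 than of all genes in each comparison, which describes a list drawn up with earlier results known.

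**Figure D1:**
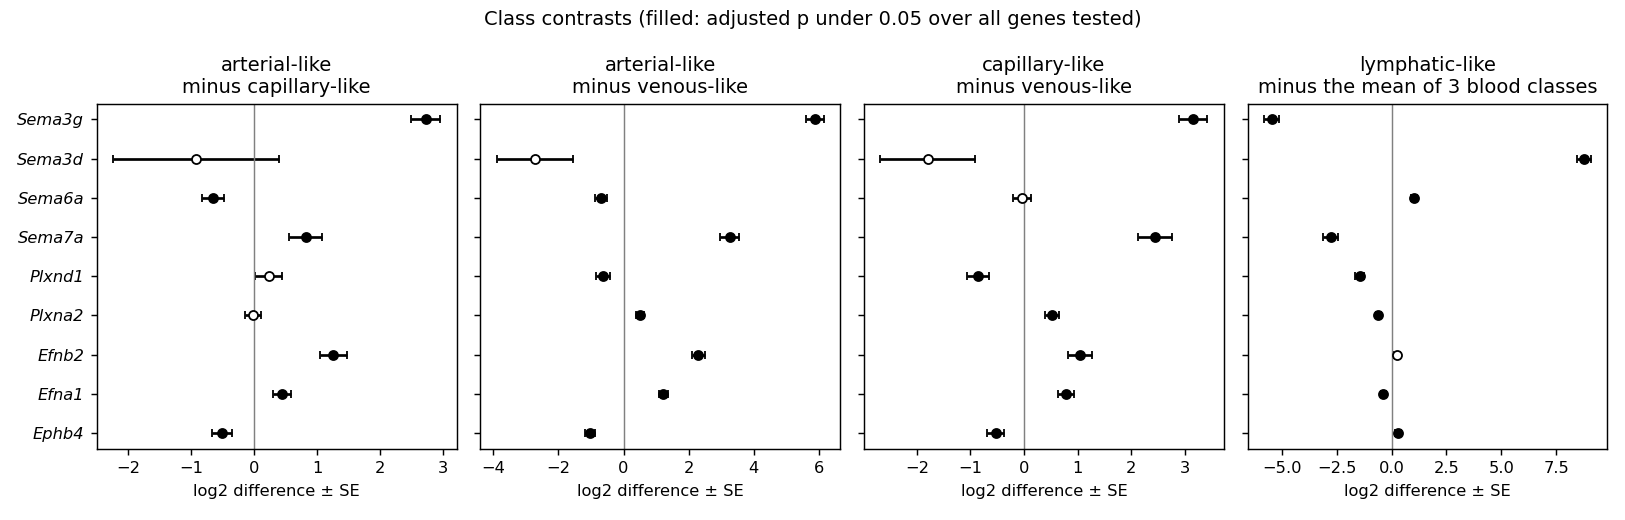
Log2 difference between cell classes for the 9 tested genes, with standard errors. Sema3g reaches farthest toward arterial-like cells against both capillary-like and venous-like cells, and Sema3d toward lymphatic-like cells.

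The wider families were also split by class. Of 53 listed semaphorins, plexins, neuropilins, ephrins and Eph receptors, 25 passed the filter on low counts. In arterial-like against capillary-like cells 8 were higher and 8 lower (13.3% and 9.97% of all 8939 genes tested). Against venous-like cells 9 were higher and 7 lower in arterial-like cells (13.9% and 15.7% of all genes). Capillary-like cells had 9 higher and 9 lower than venous-like cells (14.7% and 18.7%). Lymphatic-like cells had 9 higher and 12 lower than the blood mean (23.3% and 22.8%). The median log2 differences, 0.23, 0.11, -0.22 and -0.13, lay on both sides of those of all genes (0.00, -0.01, -0.01 and 0.01).

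The levels of co-receptors and further ligands also differed between classes. Nrp1, the neuropilin that semaphorins share with VEGF, had mean levels of 426.3 CPM in arterial-like, 748.2 in capillary-like and 401.5 in venous-like cells and 4.9 CPM in lymphatic-like cells (log2 difference from blood -6.70). Nrp2, the neuropilin of veins and lymphatics, was at 32.5, 229.1, 469.2 and 538.8 CPM in the same order, with a log2 difference of -3.8 between arterial-like and venous-like cells, and 1.89 higher in lymphatic-like cells than in blood. Sema3a, a further secreted ligand, was at 124.8 CPM in lymphatic-like cells, 6.40 above the blood mean on the log2 scale. Efna5, an ephrin of the A type, was at 62.0 CPM in arterial-like and 0.63 CPM in capillary-like cells. These levels are each compared only within a gene.

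The classes were not uniform inside. Arterial-like cells fell into cluster 9, led by Gkn3, Igf2 and Gja5, cluster 5, led by Alox12, Col8a1 and Hey1, and cluster 16, led by Klk10, Adh7 and Cytl1. Cluster levels are CPM without TMM scaling. Mean Sema3g was 1010 CPM in cluster 9, 575.7 in cluster 5 and 386.2 in cluster 16, and cluster 9 was above cluster 5 in 8 of 8 libraries, while cluster 16 was above cluster 5 in 2 of 6. Efnb2 means were 386, 318.1 and 118 CPM in clusters 9, 5 and 16. Cluster 5 was above cluster 9 in 2 of 8 libraries, and cluster 16 was below both others in 6 of 6 libraries that held enough of its cells.

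Plxnd1 took another order within arterial-like cells. Its means were 333.6 CPM in cluster 16, 161.9 in cluster 9 and 109.9 in cluster 5. Cluster 16 was above both others in 6 of 6 libraries, and cluster 9 was above cluster 5 in 8 of 8. Sema6a was higher in cluster 5 (172.3 CPM) than in cluster 9 (117.5 CPM) in 8 of 8 libraries.

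Capillary-like cells fell into cluster 1, led by Car4, cluster 2, led by Cxcl9, and cluster 3, led by Fabp5, with 5 of 5 erythroid markers raised. Cluster 1 was above cluster 3 in 6 of 6 libraries for Sema3g, Sema7a, Plxnd1, Plxna2, Efnb2 and Efna1. For Ephb4 it was above in 5 of 6 and for Sema6a in 4 of 6. Venous-like and lymphatic-like clusters also differed. Mean Plxnd1 was 446.5 CPM in cluster 14, 319.1 in cluster 8, led by Adgrg6, Nkx2-3 and Selp, and 183.8 in cluster 7, led by Ackr1. In cluster 27, led by Glycam1 and Madcam1, which are genes of high endothelial venules, it was 58.84 CPM, and Sema7a was at 69.7 CPM there. Efnb2 was at 31.0 CPM in cluster 7, 89.3 in cluster 8 and 128.2 in cluster 14. These means cover 8 libraries for cluster 7, 6 for cluster 8, 4 for cluster 14 and 2 for cluster 27. Only adipose libraries held at least 20 cells of cluster 14, and only mesentery on chow held as many of cluster 27. Cluster and tissue cannot be told apart in the means of these clusters. Within the 4 adipose libraries that held both, cluster 7 was above cluster 14 in 0 of 4 for Plxnd1 and in 0 of 4 for Efnb2. Lymphatic cluster 11, led by Ackr4 and Fibin, had more Efnb2 than cluster 4, led by Reln and Lyve1 (228 and 126 CPM, above in 7 of 8 libraries), and less Sema6a (206.3 and 416.8 CPM, below in 8 of 8).

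The shares of these clusters moved with tissue, diet and run. Cluster 16 made up 64.8% and 34.0% of arterial-like cells in mesentery on chow (runs A and B), 25.4% and 4.67% in mesentery on high fat diet, 12.0% and 3.94% in adipose tissue on chow and 2.34% and 1.11% in adipose tissue on high fat diet. Cluster 8 made up 78.3% and 67.6% of venous-like cells in mesentery on chow, 48.2% and 22.6% in mesentery on high fat diet, and 3.95% to 7.46% in adipose tissue. Among capillary-like cells, cluster 3 made up 7.14% to 56.4% of a library. Cluster 2 made up 7.61% and 69.4% in adipose tissue on chow (runs A and B), against 38.4% and 3.61% on high fat diet. Class levels of the genes that differ between clusters are therefore levels over unlike mixtures, and the part of the mixture in the comparisons below is given where it was measured.

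Diet and tissue were compared within each class in 20 comparisons, which gave 175 tests of members. In the fit without a block for run, edgeR called 0 members and 0% of the genes tested in all 20 comparisons. At an unadjusted p under 0.05 it had 4 member tests and 6 to 345 genes a comparison, and DESeq2 called 0 members and 0 to 51 genes. The libraries of a run deviate together, and with run as a replicate block edgeR called 2 of the 175 member tests and had 21 at an unadjusted p under 0.05. Over all genes that fit called 0 to 333 a comparison (0% to 3.2% of those tested). It had 101 to 1170 genes a comparison at an unadjusted p under 0.05. DESeq2 with the block called 0 members and 0 to 155 genes a comparison. At an unadjusted p under 0.05 it had 15 member tests and 35 to 632 genes a comparison.

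Those 2 calls were both Plxnd1, in arterial-like and lymphatic-like cells of the mesentery, and they pointed in opposite directions. In arterial-like cells Plxnd1 was at 264.8 and 226.7 CPM in mesentery on chow (runs A and B) and 146.6 and 136.6 CPM on high fat diet. In adipose tissue it was at 156.5 and 158.1 CPM on chow and 145.2 and 123.8 CPM on high fat diet. The mesentery on chow thus stood above the other 6 libraries. The diet difference in mesentery was -0.80 ± 0.30 (unadjusted p = 0.0287, adjusted p = 1.00) without the block and -0.78 ± 0.21 (adjusted p = 0.0452) with it, and -0.85 and -0.73 within runs A and B. With the block, 2.72% of the 10401 genes tested were called in this comparison.

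Capillary markers in the arterial-like sums were at 1496 and 16930 CPM in mesentery on chow (runs A and B), against 5360 and 43220 CPM on high fat diet. Venous markers in these sums were at 1414 to 3559 CPM in mesentery on chow and 706.7 to 1853 on high fat diet. In adipose tissue they were at 623.6 to 1209 CPM on chow and 714.7 to 1225 on high fat diet. The part of either marker set in the Plxnd1 difference was not tested. The arterial-like difference was smaller without 1 of the clusters. Without cluster 16, clusters 5 and 9 gave -0.42 (adjusted p = 1.00) with the block. Within cluster 16 Plxnd1 was at 262.8 and 330.5 CPM in mesentery on chow, against 227.2 and 512.0 on high fat diet, so the groups overlapped. In cluster 5 it was at 109.7 and 130.3 CPM on chow, against 86.9 and 99.9 on high fat diet, and in cluster 9 at 188.8 and 158.7 CPM on chow, against 111.3 and 138.5 on high fat diet, with the groups apart in both. With the block the call held in 1 of 8 fits that left out a library (adjusted p 0.0328 to 0.628), and DESeq2 did not make it. It was lost without either mesentery library on chow, either on high fat diet, adipose tissue on chow B or either adipose library on high fat diet.

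In lymphatic-like cells Plxnd1 was at 33.4 and 52.23 CPM in mesentery on chow and 67.4 and 120.0 CPM on high fat diet. In adipose tissue it was at 66.71 and 57.74 CPM on chow and 63.92 and 65.5 CPM on high fat diet, so the groups of that tissue overlapped. The diet difference in mesentery was 1.11 ± 0.36 (unadjusted p = 0.0157, adjusted p = 1.00) without the block and 1.08 ± 0.26 (adjusted p = 0.0344) with it, and 1.01 and 1.2 within runs A and B. With the block 1.93% of the 8824 genes tested were called.

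Both lymphatic clusters had higher Plxnd1 on high fat diet within each run. Cluster 4 was at 35.3 and 23.9 CPM in mesentery on chow, against 58.9 and 119.2 on high fat diet, and cluster 11 at 29.6 and 85.9 CPM on chow, against 101.2 and 152.7 on high fat diet. Of 9 fits with the block on all libraries, 8 had an adjusted p under 0.05, the exception being DESeq2 (0.256). The call held in 4 of 8 fits that left out a library (0.69 to 1.41, adjusted p 0.014 to 0.48). It was lost without mesentery on chow A or B, mesentery on high fat diet B or adipose tissue on high fat diet B.

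Macrophage-like cells also carry Plxnd1, so macrophage markers were summed in the same class sums. In arterial-like cells the 10 markers together were at 5.545 to 5.789 CPM in mesentery on chow, 8.797 to 38.99 in mesentery on high fat diet, 2.898 to 9.969 in adipose tissue on chow and 42.49 to 95.05 in adipose tissue on high fat diet. In lymphatic-like cells the ranges were 83.29 to 128.7, 126.1 to 140.2, 206.7 to 214.3 and 197.5 to 228.2 CPM in the same order. Between 1 and 9 of the 10 were detected in arterial-like and 3 to 8 in lymphatic-like libraries. The part of these markers in the Plxnd1 differences was not tested.

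Whether the Plxnd1 differences in the 2 classes differ from each other was tested in 1 fit over all 4 endothelial classes, with library as a block. This comparison was added after the values had been seen. The lymphatic-like minus arterial-like difference was 1.86 ± 0.44 on the log2 scale (unadjusted p = 0.000478, adjusted p = 0.557), so it did not pass over all genes, of which 0.00964% were called. It passed in 2 alternatives, with no filter (adjusted p = 0.0368) and with doublets kept (0.0474).

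**Figure D2:**
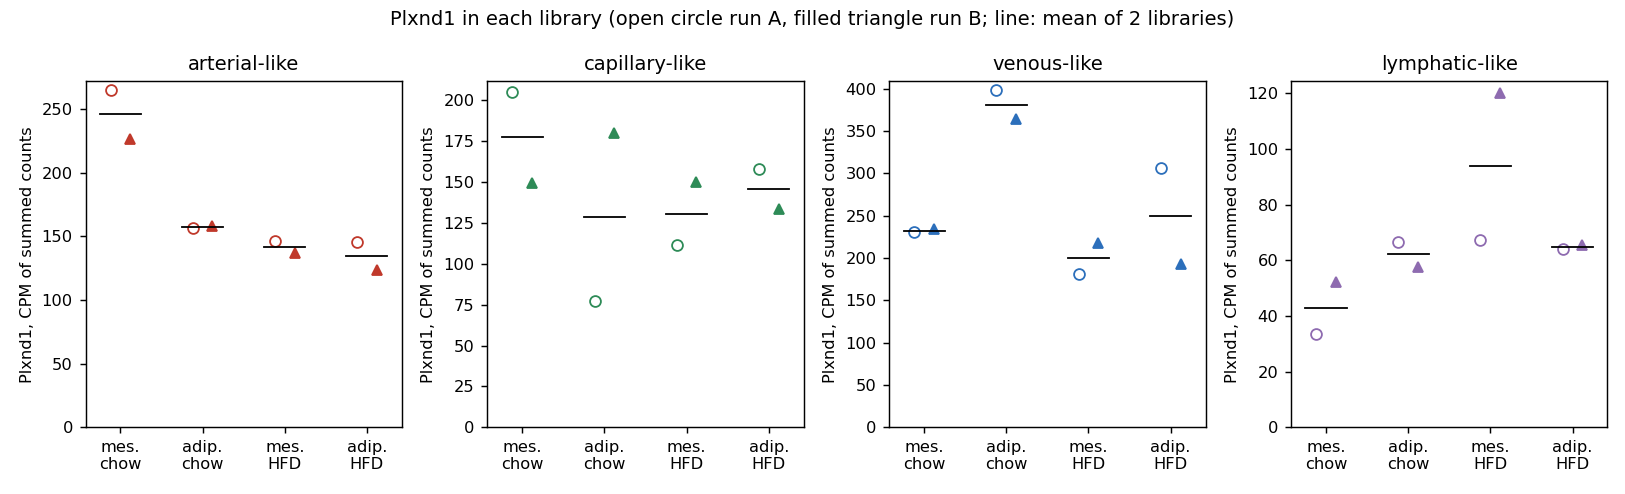
CPM of Plxnd1 in arterial-like and lymphatic-like cells by tissue, diet and run. In mesentery the arterial-like values are lower on high fat diet than on chow and the lymphatic-like values higher, in both runs.

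Efna1 in lymphatic-like cells of the mesentery came next. It was at 77.94 and 141.2 CPM on chow and 49.28 and 69.05 CPM on high fat diet, with the groups apart. The difference was -0.90 ± 0.37 (unadjusted p = 0.0433, adjusted p = 1.00) without the block and -0.88 ± 0.23 (adjusted p = 0.0602) with it, so it did not pass in either fit. Within runs A and B it was -0.66 and -1.03. With the block it passed with no filter and in cluster 4 alone, and in 3 of 8 fits without 1 library, those without mesentery on chow A or either adipose library on chow (adjusted p 0.0411 to 0.477).

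Sema3c in venous-like cells of adipose tissue had a fitted diet difference of -6.70 ± 2.63 (unadjusted p = 0.0394, adjusted p = 1.00), and the block gave an adjusted p of 0.551. All 28 counts behind it came from 1 cell of 410 in adipose tissue on chow B, in cluster 14. The other chow library and both high fat diet libraries had 0 counts. Pooled over the group, 9.578 CPM on chow stood against a floor of 1.145 CPM (3 counts over the group), at least 8.36-fold higher, from that single cell.

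The remaining members are given by their ranges. In arterial-like cells the diet differences in mesentery ran from -0.80 for Plxnd1 to 0.70 for Sema6a (median 0.36), and in adipose tissue from -0.23 for Plxnd1 to 0.41 for Sema3g (median 0.08). Between tissues on chow they ran from -0.80 for Sema6a, lower in mesentery, to 0.65 for Plxna2, and on high fat diet from -0.35 for Sema7a to 0.36 for Plxna2. In the fit without the block none of these passed, and the tissue and diet comparisons share the libraries of mesentery on chow. With the block the share of all 10401 genes called was 0.25% for diet in adipose tissue. It was 3.2% between tissues on chow, 0.106% between tissues under high fat feeding, and 0.00961% for the interaction of tissue and diet.

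In capillary-like cells no member test reached an unadjusted p under 0.05 in the fit without or with the block, while 0.448%, 0.933%, 0.289%, 0.0653% and 0.0467% of 10714 genes were called with the block, in the order diet in mesentery, diet in adipose tissue, tissue on chow, tissue on high fat diet and interaction. In venous-like cells the shares were 0.209%, 0.0762%, 2.07%, 0.267% and 0%. The lowest edgeR adjusted p of a member there with the block was 0.166, for Plxnd1 between tissues on chow (-0.77 ± 0.24, lower in mesentery), followed by 0.233 for Sema3g and diet in mesentery (1.56 ± 0.43). Plxnd1 in venous-like cells was at 230.5 and 234.1 CPM in mesentery on chow (runs A and B) but 398 and 363.8 CPM in adipose tissue on chow. Cluster 14, with the highest mean Plxnd1 of the venous-like clusters, made up 0.33% and 0.38% of venous-like cells in mesentery on chow. In adipose tissue on chow it made up 64.0% and 43.9%, and its part in this difference was not tested. In the remaining comparisons of lymphatic-like cells 0.068%, 1.68%, 0.136% and 0.0567% of genes were called and no member.

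Among the other genes of the families, calls with the block fell on 4 genes. In arterial-like cells, Nrp1 was higher on high fat diet in mesentery (0.91 ± 0.22, adjusted p = 0.0305), as was Efnb1 (1.61 ± 0.31, adjusted p = 0.00499). On chow, Nrp1 and Efnb1 were lower in mesentery than in adipose tissue (-0.88, adjusted p = 0.0285, and -1.31, adjusted p = 0.0185), and Efna5 was higher (1.49, adjusted p = 0.00211). Nrp1 was also lower in mesentery on chow in venous-like cells (-1.91, adjusted p = 0.000877), and Epha4, an Eph receptor, was higher in mesentery on chow in lymphatic-like cells (2.49, adjusted p = 0.00959). Of 53 listed, 24 were tested in arterial-like and venous-like, 25 in capillary-like and 23 in lymphatic-like cells. The fit without the block called 0 of them, 0% of all genes. With the block, 2.72% of all genes were called for diet in mesentery in arterial-like cells. Between tissues on chow it was 3.2% in arterial-like, 2.07% in venous-like and 1.68% in lymphatic-like cells. Nrp1 and Efnb1 had higher means in capillary-like (748.2 and 223.2 CPM) than in arterial-like cells (426.3 and 130.1 CPM). The part of capillary markers and of cluster shares in these calls was not tested.

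Several members differed in level between the runs. Mean levels in run B were 2.98 times those of run A for Sema6a in arterial-like cells and 3.02 times in capillary-like cells, 2.42 times for Sema7a in arterial-like cells, 2.87 and 2.33 times for Ephb4 in arterial-like and venous-like cells and 2.01 times for Sema3d in lymphatic-like cells, each higher in B in 4 of 4 groups. Plxnd1 was nearly level, at 0.905, 1.11, 0.904 and 1.28 times in arterial-like, capillary-like, venous-like and lymphatic-like cells. Venous-like Sema3g was 3.51 times higher in run B, also in 4 of 4 groups. Between the 3 blood classes, the log2 differences of Sema3g and Efnb2 kept their direction in each run while their size varied. Sema3g gave 2.58 (run A) and 2.72 (run B) in arterial-like against capillary-like cells, 7.06 and 5.52 against venous-like cells, and 4.48 and 2.80 in capillary-like against venous-like cells. Efnb2 gave 1.87 and 2.60 for Efnb2 in arterial-like against venous-like cells.

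Genes outside the families with the most similar pattern over the 32 class sums were ranked by Pearson correlation of log2 CPM centred by library, over 8451 genes. For Sema3g they were Pik3r3 (0.966), Msx1 (0.956) and Id1 (0.954), for Efnb2 Gja4 (0.904), Cyth3 (0.868) and Atp13a3 (0.854), and for Ephb4 Slco2b1 (0.859), Gpr182 (0.836) and Agtrap (0.836). Sema3d was followed by Duox2 (0.976), Nrxn2 (0.969) and Igfbp5 (0.965), Sema6a by Triobp (0.931), Kctd17 (0.900) and Ppp2r5a (0.896), and Sema7a by Efr3b (0.929), Glul (0.929) and Fes (0.911). Plxnd1 was closest to Fam171a1 (0.920), Tpm1 (0.897) and St6gal1 (0.894), Plxna2 to Adgrl4 (0.892), Rapgef1 (0.884) and Cldn15 (0.878), and Efna1 to Slc9a3r2 (0.900), Mpzl1 (0.900) and Il10rb (0.896). For Sema3c, with few counts, they were Igfbp7 (0.747), Kit (0.733) and Pigh (0.731). The 4 sums of a library share its cells and depth, so these values are descriptions.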

How the data were processed

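For each of 8 libraries the authors deposited a matrix of raw UMI counts. Per the file headers, run A carries software version 3.0.2 and run B version 5.0.0. Build mm10 and Seurat 4.3.0 are named in the submitters' processing notes, and the sources used here do not say whether counting used strand. The barcodes of the files had already been selected, and intervals on counts cover counting error only. Total UMIs were 3461360 to 6714473 in run A and 18829960 to 36779289 in run B, so run B values are the more precise.

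Of 27944 barcodes, 23970 had at least 500 UMIs, 300 genes and at most 10% mitochondrial counts. Scrublet in scanpy 1.11.5 marked 26 doublets (0.11%) by its automatic threshold, so the threshold was set from the loading rate (0.8% per 1000 barcodes), which removed 853 cells (3.56%). Clustering used 2000 variable genes, none of them among the 53 family genes, with 30 principal components, a re-implementation of Harmony over the runs and Leiden clustering (leidenalg 0.10.2, resolution 1.0, 20 neighbours). A class name needed at least 3 markers raised 1.5-fold, and "-like" is added because names were rebuilt here. Arterial-like cells are clusters 5, 9 and 16, capillary-like 1, 2 and 3, venous-like 7, 8, 14 and 27, and lymphatic-like 4 and 11.

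Counts were summed per library and class (at least 20 cells). edgeR 4.0.16 (R 4.3.3) fitted its quasi-likelihood test with TMM and filterByExpr, with 1 mean per group for diet and tissue and with library as a block for classes. A call is a Benjamini-Hochberg adjusted p under 0.05 over all genes tested. The scripts were tested on simulated data. The labels describe runs A and B as a repeat of the experiment, and same-run libraries deviated together (correlations over 6 pairs of groups 0.495 to 0.638 in arterial-like, 0.290 to 0.496 in capillary-like, 0.544 to 0.685 in venous-like and 0.627 to 0.706 in lymphatic-like cells), so values with run as a replicate block are given where they change a call.

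Alternatives were DESeq2 1.42.0, RLE scaling, no filter, each library left out, each run alone, resolution 2.0, a 20% mitochondrial limit, doublets kept and the family genes allowed in clustering. Fewer clusters a class, and the combination of the block with other settings, were chosen after seeing the data. All 10 members are named, and diet and tissue statistics are given in full for members with an adjusted p under 0.05 in either fit or an unadjusted p under 0.05 without the block. Other family genes are named only where called, except for a few class levels chosen after their values were seen. For each member the 3 most similar genes are named, from genes with a mean of at least 10 CPM. Members and lists were chosen with earlier results of these data known. Positions come from the GRCm38 annotation and promoters from RefSeq. Proteins were not analysed here.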

Additional observations from a re-analysis of the deposited data

Results flagged for a closer look

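Some clusters with no class name held members above the highest class mean, in cells that the class comparisons do not use. Values are pooled CPM without TMM scaling. Sema3d was at 334.0 CPM in cluster 13, whose 536 cells are led by Marco, Bmp2, Coch and Clec4g, against a class mean of 253.8 CPM in lymphatic-like cells. With the 20% mitochondrial limit a cluster led by the same genes took the lymphatic-like name. Cluster 22, with 265 cells led by Esm1, Col13a1, Ramp3 and Igfbp3, had Sema7a at 307.4 CPM (342 counts, highest class mean 110.1), Sema3c at 129.4 CPM (144 counts, highest class mean 11.34) and Plxna2 at 206.7 CPM (230 counts, highest class mean 137.9). Cluster 23, with 198 cells led by Apln, Prnd, Kit and Pgf, had Plxnd1 at 364.4 CPM (597 counts, highest class mean 265.7) and Plxna2 at 142.8 CPM. Plxna2 was at 152.2 CPM in cluster 6, whose 1301 cells are led by Car3, Cfd and Nnat, and Sema3c was at 125.0 CPM in cluster 17, whose 461 cells are led by Slc38a5, Osr2 and Lamc3. Of the cells of cluster 22, 160 came from mesentery on chow B, and of those of cluster 13, 396 did. Diets were not compared within these clusters.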

How the results depend on the processing

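The class differences that kept direction and call in 10 of 10 alternatives and in 8 of 8 fits without 1 library were all those of Sema3g, Sema7a except arterial-like against capillary-like cells, Efnb2 and Efna1 against venous-like cells, Ephb4 and Sema6a between arterial-like and venous-like cells, and Sema3d, Sema6a, Plxnd1 and Plxna2 in lymphatic-like cells. The number of members called between arterial-like and capillary-like cells was 6, and 2 in run A alone. Over all genes the calls were 2081, and 910 in run A alone. Leaving out 1 library gave 4 to 6 there, 7 to 9 for arterial-like against venous-like, 6 to 8 for capillary-like against venous-like and 7 to 8 for lymphatic-like cells. The calls over all genes in these fits were 1545 to 2148, 2209 to 2792, 2314 to 3242 and 3685 to 4314. Differences that turned in sign were those within their spread, those of Sema3d on few blood counts, and Sema7a and Ephb4 in run A alone, and the cause was not tested. Between arterial-like and capillary-like cells, run A alone gave 0.25 for Plxna2 and -0.65 for Sema7a, fewer clusters gave -0.16 for Plxnd1 and 0.29 for Sema3d, and doublets kept gave 2.11 for Sema3d. Between capillary-like and venous-like cells, run A alone gave 3.06 for Sema3d and 0.08 for Ephb4. For Sema6a there, run B alone gave 0.07, the 20% mitochondrial limit 0.04 and doublets kept 0.03. For Efnb2 in lymphatic-like cells these gave -0.37 (run A alone), -0.01 (20% limit) and -0.03 (doublets kept). With 1 library left out, Plxna2 between arterial-like and capillary-like cells ranged from -0.08 to 0.04 and Sema6a between capillary-like and venous-like cells from -0.09 to 0.05. Beyond these, single-gene results kept direction and side of the threshold in 368 settings with all libraries and 324 without 1, lost a call in 31 and 20 and gained one in 22 and 11.

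For diet and tissue, 0 members were called without the replicate block. With the block, 1 member was called for diet in mesentery in arterial-like cells, also with RLE, no filter or the family genes in clustering, and 0 to 1 with 1 library left out. In lymphatic-like cells the same comparison had 1 call with the block, RLE, resolution 2.0, doublets kept or family genes in clustering, 2 with no filter, the 20% limit or cluster 4 alone, and 0 to 2 with 1 library left out. Settings with the block also gave 1 call for tissue on chow in arterial-like cells (Sema6a, 20% limit, and 0 to 1 with 1 library left out), 1 for diet in adipose tissue in venous-like cells (no filter) and 1 for tissue on chow in lymphatic-like cells (no filter, resolution 2.0, 20% limit, doublets kept, family genes in clustering, cluster 4 alone). Over all genes, the block called 283 of 10401 for diet in mesentery in arterial-like cells and 427 of 16828 with no filter. In lymphatic-like cells these were 170 of 8824 and 377 of 16244. With no filter it called 110 of 16968 genes for diet in adipose tissue in venous-like cells. For tissue on chow in lymphatic-like cells it called 290 of 16244. Sema3c for diet in adipose tissue in venous-like cells ranged from -8.16 to 1.42 with the block when 1 library was left out. The Plxnd1 difference between lymphatic-like and arterial-like diet changes was 1.32 to 2.38 over its alternatives, with adjusted p from 0.0368 (no filter; 0.0474 with doublets kept) to 1.00. Mesentery on chow A and mesentery on high fat diet A held 42 capillary-like cells each, so capillary-like values of these libraries have the widest counting error.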
